A study of Mus musculus with 23 samples.

Results

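Bmp4, Bmp2, Gdf10, Inhba, Tgfb1, Tgfb2, Tgfb3, Ltbp1, Grem1 and Fst encode secreted ligands of the bone morphogenetic protein (BMP) and transforming growth factor beta (TGF-beta) family and the extracellular proteins that store or block them. These 10 genes were taken by symbol from the 18194 genes of a mouse expression array, with 18 probe sets in all. Each gene is given by its probe set with the highest mean over 23 cell lines. Of the 10, 9 were among the 12308 genes tested, whereas Bmp2 exceeded the median of the whole table, 5.13 on the log2 scale, in only 2 lines and fell short of the 3 lines required. The genes lie on mouse chromosomes 14 (Bmp4, Gdf10), 2 (Bmp2, Grem1), 13 (Inhba, Fst), 7 (Tgfb1), 1 (Tgfb2), 12 (Tgfb3) and 17 (Ltbp1).

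The study hybridised 1 array to each of 23 clonal preadipocyte lines and grouped the lines by their expression. There were 3 lines labelled Type 1, 5 labelled Type 2, 8 labelled Type 3 and 7 labelled Other. The clone names begin with PGF in 11 lines and SCF in 12, read here as perigonadal and subcutaneous fat. Each line also carries a score for fat accumulation after induced differentiation, graded by Oil Red O staining. Whether the RNA was taken before or after induction is not stated in the labels. Every line came from the fat stroma of 1 Immortomouse, a male 8 weeks old, bred to express a temperature-sensitive immortalising antigen. Each grew from 1 of 190 sorted cells, with interferon gamma (10 units/mL) in the medium and the incubator at 33 °C. All groups shared this genotype and these conditions, and each line is 1 clone. All 3 Type 1 lines were PGF lines with a differentiation score of 2, so neither depot nor score varies within Type 1. Outside Type 1, 1 Type 3 line and 1 Other line were also PGF lines with a score of 2. The other 20 lines held 8 lines with a score of 2, 7 with 3 and 5 with 4.

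BMPs and TGF-betas bind paired serine/threonine kinase receptors that phosphorylate Smad proteins. BMP ligands signal mainly through 1 branch of Smads and TGF-betas and activins through another, and antagonists such as gremlin and follistatin bind the ligands outside the cell. In preadipocytes, BMP4 and BMP2 are known to favour commitment to the fat lineage, while TGF-beta and activin A are known to restrain fat cell differentiation.

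7 of the 10 members had at least 1 promoter in the RefSeq tables (GRCm38.p6), which give 250 bases before and 50 after a transcript start. The 4 printed here belong to genes whose levels set Type 1 apart from all other lines in the results below. Capitals mark matches, on either strand, to the GC box (GGGCGG), the Smad box (CAGAC), the BMP Smad motif (GGCGCC), the TATA box (TATAAA) or the E-box (CACGTG), with GC box matches allowed to overlap each other. They lie at chr14:46390620-46390919 (minus strand) for Bmp4, chr14:33923337-33923636 (plus strand) for Gdf10, chr17:75005279-75005578 (plus strand) for Ltbp1 and chr2:113758599-113758898 (minus strand) for Grem1.
Bmp4: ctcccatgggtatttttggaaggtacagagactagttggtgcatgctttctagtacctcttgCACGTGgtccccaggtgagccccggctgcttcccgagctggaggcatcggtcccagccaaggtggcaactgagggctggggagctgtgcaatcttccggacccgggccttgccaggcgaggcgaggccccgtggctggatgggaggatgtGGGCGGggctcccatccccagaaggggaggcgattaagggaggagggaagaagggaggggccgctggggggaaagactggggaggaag
Gdf10: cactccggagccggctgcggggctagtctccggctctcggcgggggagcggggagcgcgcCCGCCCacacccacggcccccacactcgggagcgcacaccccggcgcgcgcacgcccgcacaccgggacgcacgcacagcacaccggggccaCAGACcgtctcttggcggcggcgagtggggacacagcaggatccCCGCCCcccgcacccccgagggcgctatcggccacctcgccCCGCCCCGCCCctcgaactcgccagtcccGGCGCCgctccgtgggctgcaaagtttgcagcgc
Ltbp1: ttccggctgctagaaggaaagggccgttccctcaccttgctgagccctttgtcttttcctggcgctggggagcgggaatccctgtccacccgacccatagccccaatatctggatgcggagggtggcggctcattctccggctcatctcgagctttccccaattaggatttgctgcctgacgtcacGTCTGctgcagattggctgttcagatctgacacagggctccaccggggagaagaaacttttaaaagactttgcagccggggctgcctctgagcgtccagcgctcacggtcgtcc
Grem1: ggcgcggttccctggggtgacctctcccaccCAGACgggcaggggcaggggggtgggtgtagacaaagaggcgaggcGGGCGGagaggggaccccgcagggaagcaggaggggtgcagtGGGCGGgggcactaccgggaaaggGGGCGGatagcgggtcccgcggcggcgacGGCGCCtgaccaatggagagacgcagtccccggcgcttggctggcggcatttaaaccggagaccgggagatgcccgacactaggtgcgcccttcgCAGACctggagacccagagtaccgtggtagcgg

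The Bmp4 window held 1 GC box, 1 E-box and 0 Smad boxes. The Gdf10 window held 4 GC boxes, 1 Smad box and 1 BMP Smad motif, and the Grem1 window 3 GC boxes, 2 Smad boxes and 1 BMP Smad motif. The printed Ltbp1 window, 1 of 2 for that gene, held 1 Smad box. Among all 32851 windows of this length, 35.7% held a GC box, 49.6% a Smad box, 11.9% the BMP Smad motif, 13.6% the TATA box and 7.15% the E-box, so these matches are a description of the sequences alone. A WT1 and EGR motif (GCGGGGGCG) was also searched and had 0 matches in these 4 windows, against 2.91% of all windows.

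The comparison of types asked which of these genes differ between the groups that the submitters formed. Bmp4 and Tgfb3 were higher in all Type 1 lines than in every other line, and Gdf10, Ltbp1 and Grem1 were lower, by a narrow margin for Gdf10. Of the 9 members tested, 2 rose and 4 fell in Type 1 relative to Type 2, where 14.5% of all genes tested were higher and 10.7% lower. Relative to Type 3, 3 rose and 3 fell, where 18.9% of all genes were higher and 15.8% lower. The median difference of the members was -1.50 against Type 2 and -1.01 against Type 3, beside 0.01 over all genes in both. Both member medians are the value of Fst, which did not pass, with 4 members positive and 5 negative in each comparison. The groups were formed from expression, so these p-values describe the groups, and since all lines came from 1 mouse they measure the spread between clones. The number of arrays limits the precision, and in RNA from a whole culture fewer expressing cells and less RNA per cell cannot be told apart.

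**Figure D1:**
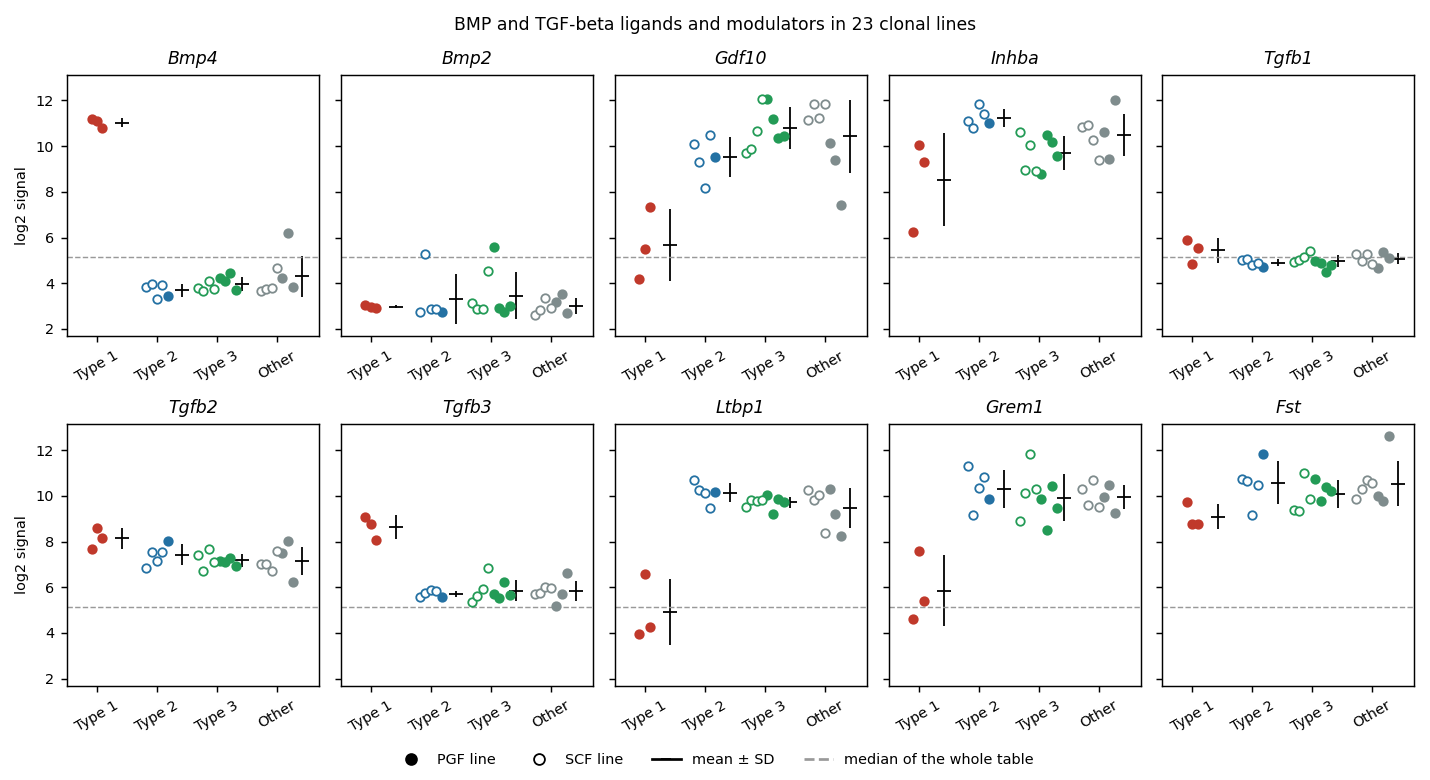
Level of each gene (log2 signal, vertical axis) in every line, by group (horizontal axis), with PGF lines filled, SCF lines open, mean ± SD beside the points and the table median dashed. Bmp4 and Tgfb3 sit above all 20 other lines in the 3 Type 1 lines, Gdf10, Ltbp1 and Grem1 sit below them, and Bmp2 stays near 3 apart from 3 lines.

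Mesothelial markers moved with Type 1, whereas a measure of RNA quality stood out in Type 1 line 1 alone. 6 of 7 mesothelial markers were higher in Type 1 than in both other types, Wt1 among them at 10.40 to 10.65 in Type 1 lines, against at most 5.24 elsewhere. Outside Type 1 only Type 3 line 7 exceeded the table median for Wt1, and only Other line 6 for Krt18 and Upk3b. These markers were thus tested only because of their Type 1 levels. Summed over the 7 markers, the log2 level was 60.1 to 71.9 in Type 1 lines, against 29.6 to 31.4 for Type 2, 26.9 to 30.7 for Type 3 and 28.5 to 36.2 for Other. Krt19 was the exception, at -2.29 against Type 2 (SE 0.79, limma, adjusted p = 0.036) and -0.84 against Type 3 (adjusted p = 0.397). Of 7 preadipocyte and fibroblast markers measured, 6 exceeded the table median in all Type 1 lines and 5 in all lines of each other group. Of the 6 tested, 2 were higher and 1 lower in Type 1 than in Type 2, and 0 were higher and 2 lower than in Type 3. Beside all marker counts here, 14.5% of all genes tested were higher and 10.7% lower than in Type 2. Against Type 3 these shares were 18.9% and 15.8%. Of 4 pericyte and smooth muscle markers tested, 2 were higher than in Type 3 (median of the 4, 1.17) and 0 than in Type 2, with summed levels of 45.1 to 47.2 in Type 1, against 42.3 to 45.5 for Type 2, 37.5 to 41.4 for Type 3 and 36.7 to 47.1 for Other. Of 3 macrophage and leukocyte markers tested, 1 was higher and 1 lower than in Type 3, and 0 and 1 than in Type 2. Of 2 endothelial markers, 1 was higher and 1 lower than in Type 3, and 1 and 0 than in Type 2, and 0 of 2 epithelial markers passed. The leukocyte marker Ptprc and the endothelial marker Pecam1 stayed below 4 in every line, while 3 of 6 macrophage and leukocyte markers and 1 of 5 endothelial markers exceeded the table median in all Type 1 lines. The signal of the 3′ over the 5′ actin control, a measure of RNA and labelling quality, was 1.58 (log2) in Type 1 line 1 and 0.53 to 1.00 in the other 22 lines. The part of these differences in the results on the members was not tested.

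Bmp4, the BMP ligand best known for committing mesenchymal cells to the fat lineage, stood at 11.18, 11.08 and 10.80 in the Type 1 lines. It was 3.83, 3.96, 3.32, 3.91 and 3.45 in the Type 2 lines. The Type 3 lines ran from 3.65 through a median of 3.95 to 4.44, and the Other lines from 3.65 through 3.84 to 6.18. No line outside Type 1 came near the Type 1 level, and only Other line 6 lay above the table median. The mean was 11.02 ± 0.19 in Type 1 (SD, n = 3), 3.69 ± 0.29 in Type 2 (n = 5), 3.97 ± 0.29 in Type 3 (n = 8) and 4.30 ± 0.90 in Other (n = 7). The difference from Type 2 was 7.33 ± 0.38 (SE; 161-fold; limma, adjusted p = 2.46e-12) and that from Type 3 was 7.05 ± 0.36 (SE; 133-fold; adjusted p = 1.07e-12). These folds are set against signals below the table median, without detection calls. Leaving out any 1 line kept the difference from Type 2 between 7.23 and 7.44.

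Bmp2, the close relative of Bmp4, followed another pattern and was not high in Type 1, where it stood at 3.05, 2.97 and 2.91. It reached 5.29 in Type 2 line 2, 4.52 in Type 3 line 4 and 5.58 in Type 3 line 5, whereas the 20 remaining lines ran from 2.61 to 3.53. All 3 raised lines had the top score observed, 4. The other lines with that score, Type 2 line 5 and Other line 5, stood at 2.75 and 3.17. In a fit without the filter on low values, Bmp2 differed by -0.34 in Type 1 from Type 2 (95% interval -1.52 to 0.84, adjusted p = 0.76) and by -0.48 from Type 3 (-1.57 to 0.61, adjusted p = 0.573).

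Gdf10, also called Bmp3b and a diverged member of the BMP family, had 4.18, 5.49 and 7.32 in the Type 1 lines. It had 10.09, 9.31, 8.18, 10.50 and 9.52 in the Type 2 lines, 9.70 to 12.07 in Type 3 (median 10.56) and 7.44 to 11.84 in Other (median 11.13). The highest Type 1 line lay just below the lowest other line, so the groups did not overlap, but the Type 1 lines were widely spread. Gdf10 was 14.5-fold lower in Type 1 than in Type 2 (-3.86 ± 0.85, SE; limma, adjusted p = 0.00178) and 35.0-fold lower than in Type 3 (-5.13 ± 0.79; adjusted p = 3.07e-05). Without Type 1 line 1 these were -3.11 and -4.39, without Type 1 line 3 they were -4.68 and -5.96, and with array weights -2.78 and -3.70. Among PGF lines alone, where Type 2 holds 1 line whose spread is taken from the other groups, the difference from Type 2 was again -3.86 but no longer passed (adjusted p = 0.101).

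Inhba encodes the beta A subunit of activin A. Its levels were 6.25, 10.05 and 9.31 in the Type 1 lines, against 11.10, 10.81, 11.86, 11.39 and 10.99 in the Type 2 lines. Type 3 ran from 8.77 through 9.81 to 10.60 and Other from 9.38 through 10.62 to 12.02. Every Type 2 line exceeded every Type 1 and Type 3 line, narrowly for Type 3 (10.81 against 10.60). The share of all genes tested with such a separation was not counted. Type 1 line 1 was the lowest of all 23. Inhba fell in Type 1 relative to Type 2 by 2.69 ± 0.66 (SE; limma, adjusted p = 0.00446). Without Type 1 line 1, the line with the raised actin ratio, the difference was -1.55 and did not pass (adjusted p = 0.0743), and among PGF lines alone it was -2.45 (adjusted p = 0.355). Relative to Type 3 the difference was -1.15 ± 0.61 (adjusted p = 0.152), and it rested on Type 1 line 1, without which it was -0.01 (adjusted p = 0.994). Without Type 1 line 2 it was -1.91 (adjusted p = 0.0341). Between Type 2 and Type 3 it was 1.54 ± 0.52 (95% interval 0.47 to 2.61, limma, adjusted p = 0.148), which passed with array weights only (1.47, adjusted p = 0.0188). For Type 1, the mean over the Inhba probe sets gave -1.42 against Type 2 and -0.58 against Type 3 (limma, adjusted p = 0.00178 and 0.127). The other probe set exceeded the table median in 0 lines and differed by -0.15 and -0.01.

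The 3 TGF-beta ligands, which cells secrete in a latent complex, ranged widely in how much they differed. Tgfb3 had 9.07, 8.76 and 8.06 in the Type 1 lines. It had 5.57, 5.74, 5.86, 5.84 and 5.59 in the Type 2 lines, 5.35 to 6.83 in Type 3 (median 5.67) and 5.17 to 6.63 in Other (median 5.75). All Type 1 lines exceeded all others by more than 1 log2 unit. Tgfb3 was 7.52-fold higher than in Type 2 (2.91 ± 0.29, SE; limma, adjusted p = 1.21e-07) and 6.84-fold higher than in Type 3 (2.77 ± 0.27; adjusted p = 5.94e-08).

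Tgfb2 had 7.68, 8.59 and 8.16 in the Type 1 lines, against 6.82, 7.56, 7.16, 7.54 and 8.02 in the Type 2 lines. It ran from 6.69 to 7.67 in Type 3 (median 7.13) and from 6.23 to 8.01 in Other (median 7.00). The groups overlapped with Type 2 and Other but Type 1 stood just above Type 3 (7.68 against 7.67), and the share of all genes tested that separate so was not counted. Tgfb2 rose relative to Type 3 by 0.97 ± 0.29 (SE; limma, adjusted p = 0.0136), and the difference from Type 2 was 0.72 ± 0.32 (adjusted p = 0.101). Against Type 2 it passed with the mean over probe sets (0.90, adjusted p = 0.0233), with 1 of the 2 other probe sets that passed the filter (1.13, adjusted p = 0.0253), with array weights (0.81, adjusted p = 0.00185) and with the 16 lines of the 3 types (0.72, adjusted p = 0.0452), and it was 0.13 among PGF lines alone (adjusted p = 0.936). The call against Type 3 was lost without Type 1 line 2 (0.75, adjusted p = 0.101) and among PGF lines alone (1.03, adjusted p = 0.0738). The other 3 Tgfb2 probe sets differed by 1.03 to 1.44 from Type 3, each passing over all probe sets, with adjusted p from 7.29e-05 to 0.00284.

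Tgfb1 lay near the table median in all groups, at 5.91, 4.85 and 5.54 in the Type 1 lines. The Type 2 lines had 5.01, 5.08, 4.82, 4.90 and 4.70, Type 3 ran from 4.49 to 5.40 (median 4.96) and Other from 4.67 to 5.38 (median 5.11). Type 1 line 2 fell within the range of the other groups. The differences were 0.53 ± 0.20 from Type 2 (SE; limma, adjusted p = 0.0577) and 0.47 ± 0.19 from Type 3 (adjusted p = 0.0549), just short of the threshold of 0.05. Without Type 1 line 1 they were 0.29 and 0.23 (adjusted p = 0.397 and 0.425), and the mean over the Tgfb1 probe sets gave 0.20 and 0.16 (adjusted p = 0.171 and 0.206). Both passed without Type 1 line 2, at 0.82 and 0.76 (adjusted p = 0.00408 and 0.00373), with array medians set equal, at 0.55 and 0.49 (adjusted p = 0.0464 and 0.0421), with array weights and with depot in the model. Leaving out Type 3 line 4 or Other line 5 also brought both differences past the threshold, and leaving out Type 3 line 7 that from Type 2 (adjusted p from 0.0265 to 0.0485).

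Ltbp1, which tethers the latent TGF-beta complex to the matrix, had 3.94, 6.57 and 4.25 in the Type 1 lines. It had 10.68, 10.26, 10.14, 9.47 and 10.16 in the Type 2 lines, 9.22 to 10.03 in Type 3 (median 9.79) and 8.22 to 10.29 in Other (median 9.81). The groups did not overlap, and 2 of the 3 Type 1 lines lay below the table median. Ltbp1 was 37.3-fold lower in Type 1 than in Type 2 (-5.22 ± 0.50, SE; limma, adjusted p = 6.07e-08) and 27.6-fold lower than in Type 3 (-4.79 ± 0.46; adjusted p = 5.06e-08). Without Type 1 line 2 they were -6.05 and -5.61, and the low end of these folds lies partly below the table median, without detection calls. The mean over its 3 probe sets gave -2.58 and -2.19, and the other 2 probe sets exceeded the table median in 1 line each.

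Grem1, an antagonist that binds BMP2 and BMP4, had 4.59, 7.57 and 5.40 in the Type 1 lines. It had 11.31, 9.15, 10.35, 10.82 and 9.84 in the Type 2 lines, 8.50 to 11.83 in Type 3 (median 9.98) and 9.25 to 10.67 in Other (median 9.93). The Type 1 lines, highest for the ligand Bmp4, were thus lowest for this antagonist. Grem1 was 21.7-fold lower than in Type 2 (-4.44 ± 0.64, SE; limma, adjusted p = 2.37e-05) and 16.7-fold lower than in Type 3 (-4.06 ± 0.60; adjusted p = 1.91e-05). Without Type 1 line 2 these were -5.30 and -4.92, and without Type 1 line 1 they were -3.81 and -3.43. Among PGF lines alone the difference from Type 2 was -3.98 and just missed the threshold (adjusted p = 0.0516).

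Fst, follistatin, which binds activin, was abundant in every line. It had 9.71, 8.78 and 8.75 in the Type 1 lines, against 10.75, 10.65, 9.18, 10.46 and 11.84 in the Type 2 lines. Type 3 ran from 9.33 to 11.01 (median 10.04) and Other from 9.76 to 12.61 (median 10.28). Type 1 was at the low end, with 2 of its 3 lines below all 20 others. The differences were -1.50 ± 0.56 from Type 2 (SE; limma, adjusted p = 0.0536) and -1.01 ± 0.52 from Type 3 (adjusted p = 0.137). The second Fst probe set gave -1.74 and -1.30 (adjusted p = 0.027 and 0.0624 over all probe sets, or 0.0204 and 0.0475 with the filter on low values). The main probe set passed against Type 2 without Type 2 line 3 (-1.84, adjusted p = 0.017) or Other line 7 (-1.50, adjusted p = 0.0154), with depot in the model (-1.99, adjusted p = 0.0226) and with the 16 lines of the 3 types (-1.50, adjusted p = 0.0298), and against both types with array weights (-1.64 and -1.28). The mean of both probe sets passed against Type 2 (-1.62, adjusted p = 0.0343) and not against Type 3 (-1.15, adjusted p = 0.0837).

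**Figure D2:**
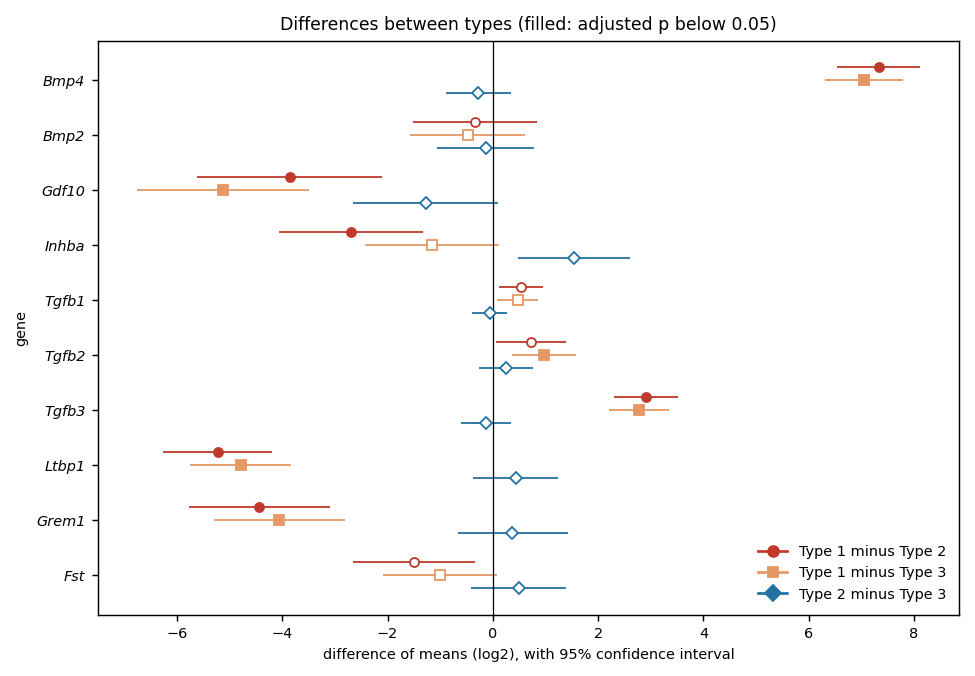
Differences of group means (log2, horizontal axis) with 95% confidence intervals for each gene, Type 1 minus Type 2, Type 1 minus Type 3 and Type 2 minus Type 3, filled where the adjusted p was below 0.05. Bmp4 stands alone at 7.33 and 7.05, Ltbp1, Gdf10 and Grem1 lie between -5.22 and -3.86, and no member is filled for Type 2 minus Type 3.

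All Type 1 lines lay above all 20 others for 2 tested members, Bmp4 and Tgfb3, a pattern shown by 7.86% of all genes tested. They lay below all 20 for 3 members, Gdf10, Ltbp1 and Grem1, as did 5.89% of all genes. Bmp4 exceeded the table median in only 4 lines, the 3 Type 1 lines and Other line 6, so it was tested only because of its Type 1 levels. Other genes may have entered the share of 7.86% in the same way. Without the filter the Bmp4 difference from Type 2 was again 7.33 (limma, adjusted p = 2.49e-12). Type 1 line 1, the line with the highest actin ratio, was the lowest line for each of Gdf10, Inhba, Ltbp1 and Grem1. Without it, 5 members passed against Type 2 and 6 against Type 3, beside 6 in each with all lines. Leaving out that line also lowered the number of all genes called, from 3099 to 2004 against Type 2. Against Type 3 it went from 4274 to 3123.

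Between Type 2 and Type 3, 0 of 9 members passed, where 0.203% of all genes tested were higher and 0.179% lower by limma. Only Inhba had an unadjusted p under 0.05, with array weights bringing the count of members to 1. The next in size was Gdf10, at -1.28 ± 0.66 (SE; 95% interval -2.65 to 0.10, adjusted p = 0.325). For Other against the mean of Types 2 and 3, 0 members passed, as did 0% of all genes, with 1135 genes and 0 members at an unadjusted p under 0.05. The widest of these member differences were 0.47 for Bmp4 (95% interval -0.04 to 0.99) and -0.47 for Ltbp1 (-1.14 to 0.20).

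Pathway genes around the members were counted by role in the same fits, and the shares of all genes given above apply to them. In Type 1 relative to Type 3, other ligands gave 1 higher and 3 lower of 13 tested. Inhbb, the activin beta B subunit, fell by 3.91 ± 0.85 (SE; limma, adjusted p = 0.00116), with means of 6.80 in Type 1 and 10.71 in Type 3. Its Other lines ran from 5.22 to 11.76, which takes in the Type 1 range of 6.08 to 7.22. Bmp8a fell by 1.11 and Gdf2, also called BMP9, rose by 0.51, at 6.47 in Type 1 and 5.96 in Type 3. Among receptors, 1 was higher and 3 lower of 13. Tgfbr3, the co-receptor betaglycan, fell by 3.42 ± 0.26 (SE; adjusted p = 1.69e-09), with 9.32 to 10.05 in Type 1 lines, against 12.75 to 13.31 in Type 3 lines. Bambi, a decoy receptor, fell by 1.09, and Bmpr1a, a BMP type I receptor, rose by 0.74 (adjusted p = 0.000334). Relative to Type 2 the receptor count was 6 higher and 1 lower of 13, with Acvr1, Acvr1b, Amhr2, Bmpr1a, Bmpr2 and Tgfbr1 up by 0.43 to 1.18, named after their values were seen. The difference between these counts was not tested.

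Of 13 Smads and Smad regulators tested, 3 rose and 3 fell relative to Type 3. Skil, which represses Smad-driven transcription, rose by 2.47 ± 0.35 (SE; limma, adjusted p = 1.04e-05) and Tgif2, a corepressor, by 0.73. Smad1, which relays BMP signals, fell by 0.69 and Smurf1, a ubiquitin ligase that targets it, by 0.68. Of 7 other extracellular antagonists, 2 rose and 3 fell. Bmper rose by 3.35 ± 0.54 (SE; adjusted p = 6.07e-05), with 11.22 to 11.67 in Type 1 lines, against 6.36 to 9.52 in Type 3 lines. Crim1 rose by 1.95, whereas Fstl3, which binds activin, fell by 1.02 and Nbl1 by 0.98.

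Of 7 genes for storing and activating latent TGF-beta, 2 rose and 2 fell. Itgb8, an integrin subunit that with Itgav frees TGF-beta from its latent complex, rose by 3.11 ± 0.57 (SE; limma, adjusted p = 0.000243), and Itgav rose by 0.53. Thbs1, another activator, fell by 2.00 ± 0.30 (adjusted p = 2.12e-05) and Bmp1, a protease, by 0.64. Of 8 BMP target genes 1 passed, Msx1, which rose by 0.65 (adjusted p = 0.0416). Of 6 TGF-beta target genes 2 passed, with Ccn2 up by 3.92 ± 1.00 (SE; adjusted p = 0.00419) and Pmepa1 by 1.15 ± 0.27 (adjusted p = 0.00232). Ccn2 was 11.88 to 12.39 in Type 1 lines, but its range in Type 2 lines, 9.82 to 11.87, nearly met it, and relative to Type 2 it did not pass. In Other lines Ccn2 ran from 6.89 to 12.79, past the highest Type 1 line. Relative to Type 2 the counts were 1 higher and 3 lower for other ligands, 3 and 2 for Smads and their regulators, 1 and 1 for antagonists, 2 and 1 for latent TGF-beta, 1 and 1 for BMP targets and 1 and 0 for TGF-beta targets. The targets in question, also named after their values were seen, were Msx1 (0.94), Msx2 (-1.05) and Fn1 (1.25). Between Type 2 and Type 3, 0 genes of these lists passed.

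**Figure D3:**
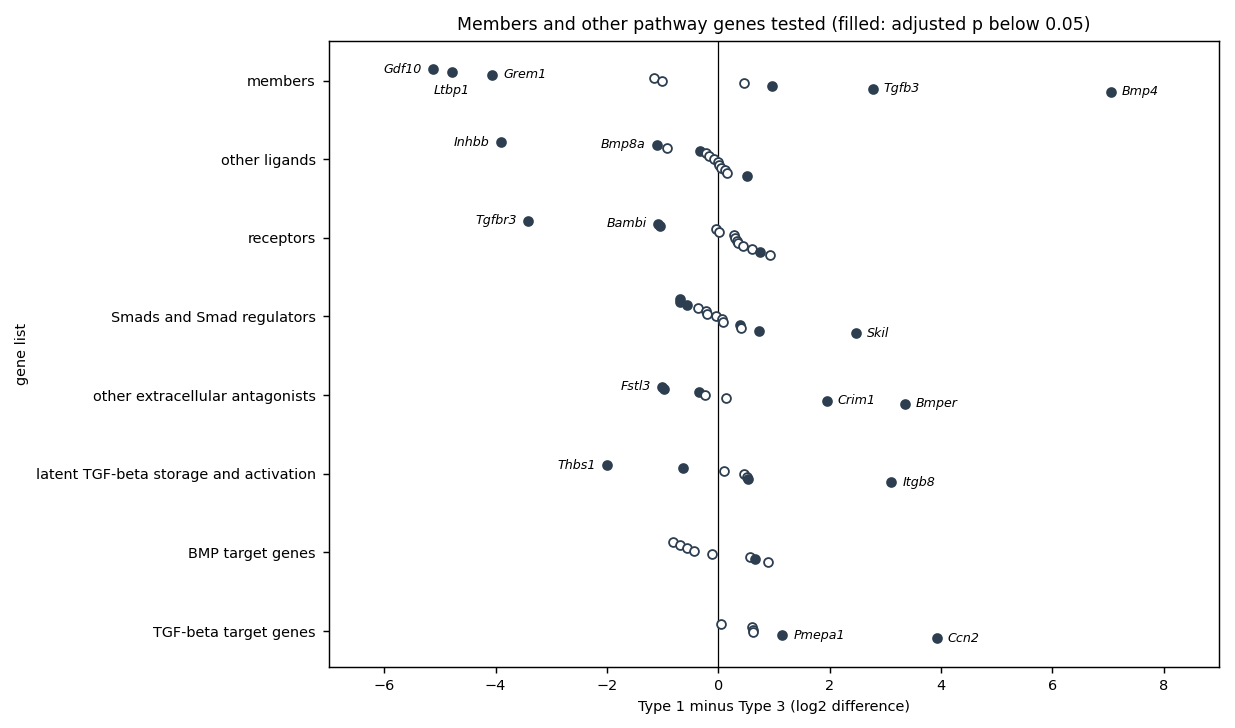
Type 1 minus Type 3 (log2 difference, horizontal axis) for every tested member and pathway gene, 1 row per list and 1 point per gene, filled where the adjusted p was below 0.05, with names for filled genes named in the text and beyond 1 in size. Members reach 7.05 (Bmp4) and -5.13 (Gdf10), and the largest other changes are Ccn2 at 3.92, Inhbb at -3.91 and Tgfbr3 at -3.42.

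The differentiation score was examined as a slope per point with group in the model, so the 3 Type 1 lines, all with a score of 2, add nothing to it. By limma 0 of 9 members passed, as did 0% of all genes tested. An unadjusted p under 0.05 was seen for 872 genes and for 0 of these 9 members. Inhba averaged 10.98 ± 0.76 at score 2 (SD, n = 8), 9.89 ± 0.73 at score 3 (n = 7) and 10.02 ± 1.08 at score 4 (n = 5) outside Type 1. Its slope was -0.45 ± 0.25 per point (SE; adjusted p = 0.76). Grem1 averaged 10.53 ± 0.84, 9.60 ± 0.73 and 9.81 ± 0.41 at scores 2, 3 and 4, with a slope of -0.41 ± 0.24 (adjusted p = 0.789). Both genes had their highest lines at score 2, and their ranges overlapped across the scores.

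Bmp2, outside the tested set, averaged 2.88 ± 0.21 at score 2, 2.99 ± 0.28 at score 3 and 4.26 ± 1.26 at score 4 (SD). The large SD at score 4 comes from 3 raised lines of 5. In the fit without a filter the slope was 0.62 ± 0.18 per point (95% interval 0.24 to 1.00, limma, unadjusted p = 0.00264, adjusted p = 0.521). Gdf10 averaged 10.04, 10.51 and 10.61 at scores 2, 3 and 4 (slope 0.26 ± 0.34, adjusted p = 0.919). Its top levels, 12.07 and 12.04, were in Type 3 lines 4 and 5, where Bmp2 was raised too, but in Type 2 line 2, the third line with raised Bmp2, Gdf10 was 9.31, below the median of 10.42 over the 20 lines. Tgfb2 averaged 7.06, 7.25 and 7.46 (slope 0.21 ± 0.12, adjusted p = 0.769). The slopes of the other members lay between -0.11 and 0.13.

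**Figure D4:**
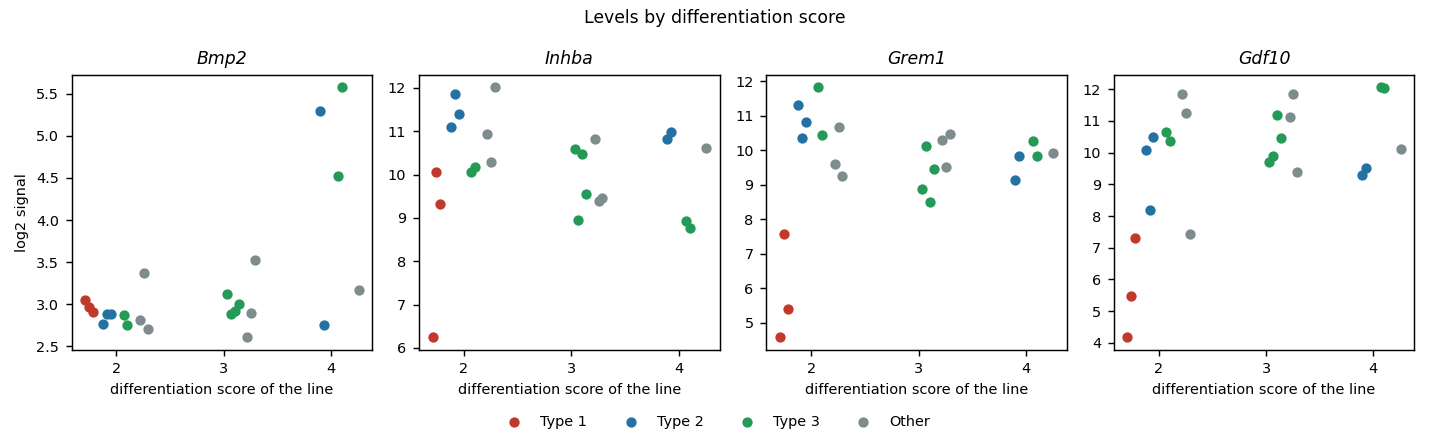
Levels of Bmp2, Inhba, Grem1 and Gdf10 (log2 signal, vertical axes differ) in each line by differentiation score (horizontal axis), coloured by group, with points spread sideways for clarity. Bmp2 exceeds 4.5 in 3 lines, all with a score of 4, and the highest Inhba and Grem1 lines have a score of 2.

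The depot comparison, PGF against SCF lines within groups, also passed 0 of 9 members, beside 0% of all genes tested by limma, with 1034 genes and 0 members at an unadjusted p under 0.05. The largest member differences were -0.76 ± 0.53 for Gdf10 (SE; adjusted p = 0.702) and 0.62 ± 0.34 for Fst (adjusted p = 0.637). Within Other, Gdf10 stood at 10.12, 9.39 and 7.44 in the PGF lines, against 11.13, 11.84, 11.24 and 11.84 in the SCF lines. These ranges do not overlap, but the share of all genes that separate in this way was not counted. Depot within Other was not tested on its own. In Type 3 Gdf10 averaged 11.01 ± 0.77 in PGF lines and 10.57 ± 1.08 in SCF lines (SD, n = 4 each), with overlapping ranges. A test added after these levels were seen compared the depot difference in Other with that in Type 3, which gave -2.96 ± 1.02 for Gdf10 (SE; limma, adjusted p = 0.402) and passed 0% of all genes, with 1096 at an unadjusted p under 0.05.

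Ligand and antagonist levels were compared across lines within Type 3 (n = 8) and Other (n = 7), as 6 relations with exact two-sided permutation tests, and none passed. Bmp4 in Type 3 and Bmp2 in Other exceeded the table median in 0 lines, and Bmp4 in Other and Bmp2 in Type 3 in 1 line each. The relations of these 2 ligands therefore rest on low signals without detection calls and cannot decide how they relate to Grem1. Inhba and Fst in Other had the largest coefficient, with Pearson r 0.65 (exact permutation p = 0.128, adjusted 0.384) and Spearman rho 0.29 (exact permutation p = 0.556, adjusted 0.667). It was 0.26 without the 2 lines farthest from the Inhba median. Bmp2 and Grem1 in Other had r 0.64 (exact permutation p = 0.124, adjusted 0.384) and rho 0.57 (exact permutation p = 0.2, adjusted 0.667), and r -0.03 without the 2 farthest. In Type 3 the same pairs gave r -0.09 and rho -0.26 for Inhba and Fst, and r -0.01 and rho -0.45 for Bmp2 and Grem1, with r -0.57 without the 2 farthest. Bmp4 and Grem1 had r 0.23 in Type 3 (exact permutation p = 0.592, adjusted 0.979) and 0.26 in Other (exact permutation p = 0.653, adjusted 0.979).

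The members varied unequally among the 20 lines outside Type 1. The SD over these lines was 1.24 for Gdf10, 0.95 for Inhba, 0.83 for Fst and 0.81 for Grem1, and it was 0.24 for Tgfb1 and 0.39 for Tgfb3. For the 3 most variable members above the table median, the genes with the most similar levels over the 20 lines were Mmp2 (r 0.88), Fndc10 (0.88) and Pts (0.87) for Gdf10. They were Fermt2 (0.91), Bcar1 (0.91) and Tnk2 (0.90) for Inhba and Map1b (0.89), Sik1 (0.83) and Zfp850 (0.82) for Fst. Over all 23 lines these coefficients ran from 0.05 for Zfp850 to 0.82 for Fndc10. All points come from the same arrays and 1 mouse, the genes were picked for their coefficient, and the values describe these lines alone.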

How the data were processed

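Total RNA (250 ng per line) was biotin-labelled and hybridised to 1 mouse array per clonal line, per the labels' protocols. The log2 values deposited by the authors were made with MAS5 (no version), per the submitters' processing notes, and were used as deposited. The log2 scale was read from their range, 2.03 to 14.46. The sources used here do not give how arrays were scaled. Medians per array ran from 5.09 to 5.16, and correlations of array pairs from 0.937 to 0.992. All columns of the table belong to the 23 lines (0 unused).

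Of 45101 probe sets, 34958 had 1 gene symbol in the platform annotation, 932 several and 9211 none. Each of 18194 genes is given by its probe set with the highest mean, and the 12308 genes above the table median of 5.13 in at least 3 lines were tested. Groups, taken from the labels, were compared with limma 3.58.1 (lmFit, eBayes, under R 4.3.3), the 23 lines sharing 1 estimate of spread, with Benjamini-Hochberg adjustment over all genes tested and a threshold of 0.05. Depot and score slopes kept group in the model. Line numbers within a group are names without meaning. No detection calls were used. The scripts were tested on simulated data. Tables and plots were made in Python 3.11.15 (pandas 2.3.3, numpy 2.4.6, matplotlib 3.10.9, scipy 1.17.1).

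The members, gene lists and tests were chosen with earlier results of these data known. All members are named, up to 2 genes of each pathway list in each direction with the largest difference among those that passed in Type 1 minus Type 3 or Type 2 minus Type 3, and the 3 genes most like each of the 3 most variable members outside Type 1. Gene names and promoters came from RefSeq tables of GRCm38.p6. Of the 10 members, 7 matched the promoter table, with 8 windows, and the windows of Bmp2, Tgfb3 and Fst were not analysed here. The alternatives covered the filter, the choice of probe set, array centring, array weights, clone-name number, depot, the lines in the fit and each line left out in turn.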

Additional observations from a re-analysis of the deposited data

Results flagged for a closer look

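In groups of 4 to 10 lines, 3 of 30 combinations of member and group held a line set apart from the rest of its group by a gap that was large for the group's whole range (Dixon's criterion). Chance marks about 1 in 20 such groups. Bmp4 was 6.18 in Other line 6, against 3.65 to 4.65 in the other Other lines, and the gap took 0.605 of the range. That line was also the highest of the Other group for the mesothelial markers Krt18, at 6.11, and Upk3b, at 7.08, and the part of this in the Bmp4 level was not tested. Bmp2 was 5.29 in Type 2 line 2, against 2.75 to 2.89 in the other Type 2 lines, a gap of 0.946 of the range. Fst was 12.61 in Other line 7, against 9.76 to 10.67 in the other Other lines, a gap of 0.681 of the range. The same line had the highest Inhba level of all 23, at 12.02, and the lowest Gdf10 level outside Type 1, at 7.44.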

How the results depend on the processing

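No paired analysis was possible because the labels number no replicates; the number in the clone name, shared by many lines and of unstated meaning, was added as a factor instead. Among results for single members that passed, 368 kept their direction and their side of the threshold under the alternatives and 6 lost the call, and all 6 are given with the members above. Many of the 368 could not move in size. Leaving out a line of a group outside the comparison changes only the shared spread. Members with a single probe set keep their value when probe sets are averaged. The genes called in Type 1 against Type 2 numbered 3099, and 5817 with array weights, 801 among PGF lines alone (3 members in place of 6) and 2004 (without Type 1 line 1) to 3343 with 1 line left out. Against Type 3 there were 4274 genes, and 7011 with array weights. With every probe set tested on its own, 5150 of 21687 probe sets (23.7%) were called against Type 2, beside 25.2% of genes, and 7167 (33%) against Type 3, beside 34.7% of genes. The count for Type 2 against Type 3, 47, became 9 without a filter, 7 with mean probe sets, 1037 with array weights (1 member, Inhba), 5 with the clone-name number, 133 with depot, 565 with the 16 lines of the 3 types and 0 (without Type 2 line 1) to 195 (without Other line 7) with 1 line left out, and 12 of 21687 probe sets were called. It therefore rests on the lines and settings used. For Other, leaving out 1 line gave 0 to 1 genes (1 without Type 1 line 2), and the score slope gave 2 genes with depot in the model. The array weights came from an estimate that stopped short of full convergence.

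Only differences that had not passed changed sign, and the cause was not tested. In Type 1 against Type 2, Bmp2 was 0.23 among PGF lines and -0.48 to 0.16 with 1 line left out. In Type 2 against Type 3, Tgfb3 was 0.03 with array weights, and leaving out 1 line gave -0.13 to 0.00 for Tgfb1, -0.21 to 0.00 for Tgfb3 and -0.63 to 0.16 for Bmp2. In Other, Inhba was -0.06 with array weights, and leaving out 1 line gave -0.21 to 0.23 for Inhba, -0.29 to 0.01 for Tgfb2, -0.07 to 0.17 for Tgfb3 and -0.14 to 0.36 for Fst. In PGF against SCF, Inhba was -0.02 with array weights, Ltbp1 0.12 and Bmp2 -0.69 with the clone-name number, and leaving out 1 line gave -0.11 to 0.30 for Inhba, -0.23 to 0.03 for Tgfb3, -0.30 to 0.04 for Ltbp1 and -0.23 to 0.22 for Bmp2. For the score slope, Fst was 0.02 with array weights, leaving out 1 line gave -0.03 to 0.08 for Tgfb1 and -0.24 to 0.10 for Fst, and without group in the model Bmp4 was -1.03, Tgfb1 -0.06, Grem1 0.28 and Fst 0.12. That model sets the score-2 Type 1 lines against the rest.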
